A study of Mus musculus with 44 samples.

Results

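The effect of CK-666 on the joining of a Cas9-induced break was examined in 6 high-throughput genome-wide translocation sequencing (HTGTS) libraries, out of the 32 HTGTS libraries and 44 samples of the series. The libraries were those whose titles name Cas9, with 3 replicates under DMSO and 3 under CK-666. They held 24943 of the 148726 deposited junctions. All 6 came from wild-type C57BL/6 mouse embryonic fibroblasts (MEFs), cultured cells without the AsiSI transgene of the other HTGTS libraries, transfected with a single-guide RNA 48 h before lysis. The treatment labels read 4OHT/DMSO and 4OHT with CK-666, so that 4-hydroxytamoxifen was listed for both arms. The study's methods give 100 µM for 6 h for CK-666 in a passage that describes AsiSI induction, and state no separate dose or time for the Cas9 cells. The labels do not say whether replicates were separate cultures, so the p-values measure only the spread between these libraries.

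In HTGTS, 1 known break serves as the bait: primers next to it amplify the DNA, and each read runs from the bait end into the sequence it was joined to, the prey. Cas9 makes a double-strand break 3 bases from the NGG motif beside its target, and such ends are resealed by non-homologous end joining or by pathways that use short stretches of matching bases, called microhomology. CK-666 inhibits the ARP2/3 complex, the nucleator of branched actin networks in cytoplasm and nucleus, and the comparison asks whether blocking this complex alters the rearrangements of a single break. The bait lies in the first exon, in the 5′ untranslated part, of Rsu1, which encodes an adaptor protein of integrin adhesions. The guide target was found on the plus strand of chr2:13271307-13271326 (mm10), and the predicted cut follows position 13271323. It overlaps the AsiSI motif at chr2:13271317-13271324, which is the bait of the AsiSI libraries. The target is shown because bait ends are counted from its cut, with the NGG motif in capitals, and the AsiSI motif is given with it.
Cas9 target: ccctgtcccagcgatcgcgcAGG
AsiSI motif: gcgatcgc

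Before any comparison, the prey were checked against the label of the cells. Wild-type MEFs should hold no AsiSI breaks, yet all 6 libraries held prey within 500 bp of AsiSI motifs. There were 32, 17 and 108 such junctions under DMSO and 319, 32 and 151 under CK-666, in order of replicate. They made up 1.72%, 1.38% and 5.04% of the unique-sequence prey under DMSO and 8.17%, 2.91% and 6.49% under CK-666, while 0.0407% of the genome lies as close to a motif. In each of the 3 pairs of the same replicate number CK-666 had the higher share, by a mean log2 ratio of 1.23 ± 0.95 (SD, exact sign-flip test p = 0.25). Of 1108 motifs besides the bait, 183 had prey, and 178 of these also had prey in the 26 AsiSI-bait libraries. The leading sites were those in Arhgap11a and Romo1, which encodes a mitochondrial membrane protein, with 24 junctions each.

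The bait ends of these junctions were not those of the other prey. The bait ended exactly at the Cas9 cut in 37.4% ± 5.99 (SD, n = 3) of the other unique prey under DMSO and 37.3% ± 5.31 under CK-666. At AsiSI motifs this held for 1.66% ± 1.57 and 0.871% ± 1.02, and the bait ended 1 base further on in 43.7% ± 3.22 and 46.3% ± 8.73. In the 6 DMSO-treated libraries of the AsiSI bait, 26.5% ± 5.97 (SD, n = 6) of the prey at motifs ended at that further base and 1.88% ± 0.413 at the Cas9 cut. The bait shares the AsiSI motif with prey at motifs, and in the bait the motif ends at that same base. A bait alignment can run on through these shared bases, so the bait end does not show which enzyme cut the bait. Position, strand and bait end were those of a junction in an AsiSI-bait library for 592 of the 659 prey at motifs (89.8%), although 7 had an identical read. Among unique prey over 10 kb from a motif, 204 of 11781 (1.73%) matched in this way. Prey at motifs lay a median of 3 or 4 bp from a motif in each library, while the other prey was scattered. A match is thus more likely at motifs whatever the origin, and the 1.73% is no baseline for the 89.8%. By the run name most frequent in their read identifiers, all 6 libraries shared 1 sequencing run with 2 AsiSI-bait libraries. Those were the wiskostatin replicate 2 and its control. These 2 libraries alone held a match for 489 of the prey at motifs (74.2%). The 24 AsiSI-bait libraries of other runs, with 71421 prey at motifs against 7158, held a match for 592 (89.8%). The origin of these junctions was not tested, and results over unique-sequence prey are given with and without them where they differ.

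**Figure D1:**
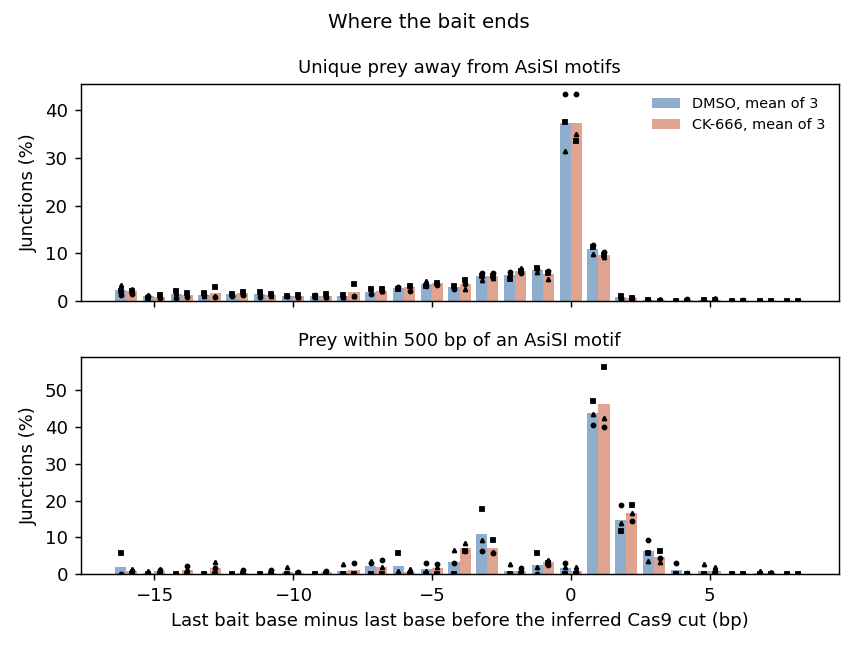
Share of junctions (vertical axis, %) by the distance in bp of the last bait base from the inferred Cas9 cut (horizontal axis, negative before the cut). Bars are means of 3 libraries, and circles, squares and triangles are replicates 1, 2 and 3. Prey away from AsiSI motifs peaks at 0 and prey at motifs peaks 1 base later, in all 6 libraries.

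Junctions were sorted into those within 10 kb of the break, telomeric prey (3 or more units of the telomeric repeat in the prey part of the read), prey in 9 repeat windows of 10 kb, prey on contigs outside the assembled chromosomes, and the remainder, called unique-sequence prey. DMSO libraries held 3229, 4086 and 3492 junctions and CK-666 libraries 5733, 4805 and 3598. CK-666 libraries were the larger in 3 of 3 pairs, but these totals depend on the depth and input of each library and were not scaled to unrearranged bait reads, so values below are shares within a library. Unique-sequence prey numbered 1859, 1235 and 2141 under DMSO and 3904, 1099 and 2327 under CK-666. Replicate 2 of both arms stood apart, with 39.3% of all junctions telomeric under DMSO and 56.2% under CK-666, while the other 4 libraries lay between 1.501% and 3.89%. Confidence intervals (95%, Wilson) given below cover counting error only, since amplified reads without molecular identifiers are not independent molecules.

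**Figure D2:**
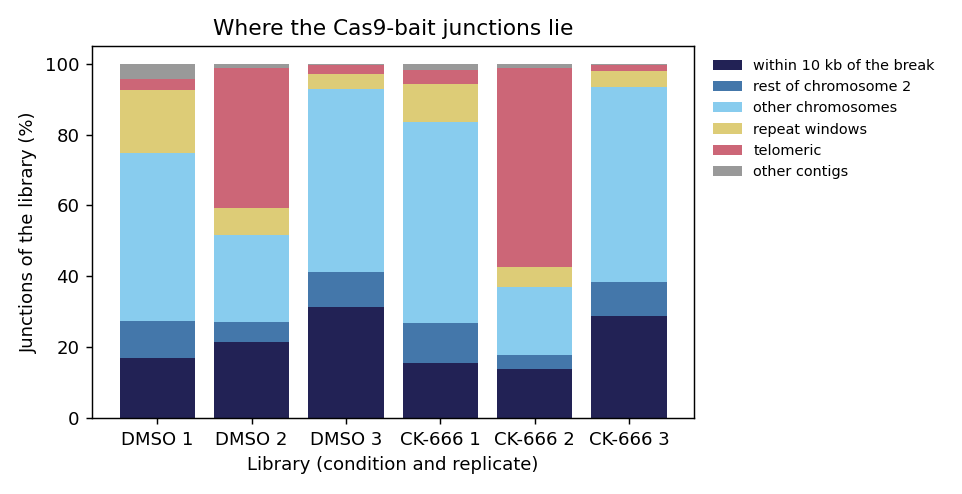
Stacked bars give the share of each library's junctions (vertical axis, %) in 6 classes of prey position, for the 3 DMSO and 3 CK-666 libraries (horizontal axis). The telomeric class is large in replicate 2 of both arms, and the class within 10 kb of the break is largest in replicate 3 of both arms.

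The arms were compared pair by pair in 11 kinds of share. None of the 11 passed the test, and none could have, because 3 pairs cannot give a two-sided exact p under 0.25. The shares that were lower with CK-666 in 3 of 3 pairs were those of junctions within 10 kb of the break, of prey elsewhere on chromosome 2, and of prey between 10 kb and 5 Mb from the break. The share in promoters was higher in 3 of 3 pairs. Each of these 4 had p = 0.25 in the exact sign-flip test and an adjusted p of 0.688 over the 11, and the other 7 had no common direction.

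**Figure D3:**
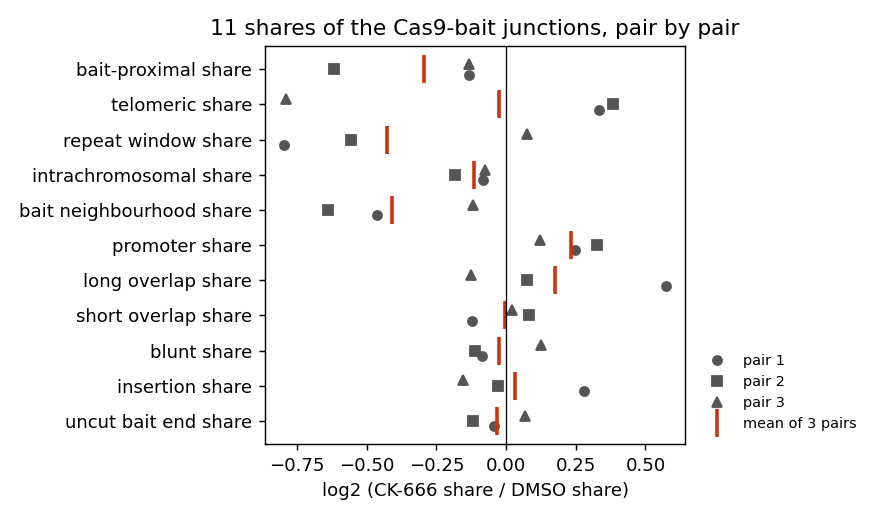
Each row is 1 of the 11 shares, with the log2 ratio of the CK-666 to the DMSO library of the same replicate number on the horizontal axis. Circles, squares and triangles are pairs 1, 2 and 3 and the red line is their mean, and the rows in which all 3 symbols lie on the same side of 0 are the bait-proximal, intrachromosomal, bait neighbourhood and promoter shares.

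Junctions within 10 kb of the break are called local junctions here, wherever the bait ended. Their share of all junctions was 17.1%, 21.5% and 31.5% under DMSO and 15.6%, 14.0% and 28.7% under CK-666. Replicate 3 was the highest in both arms, and the arms overlapped. The mean was 23.4% ± 7.39 (SD, n = 3) and 19.4% ± 8.07, a mean log2 ratio of -0.29 ± 0.28, with pair 2 the furthest from 0 at -0.62. Telomeric prey is part of this total and made up 39.3% of it under DMSO and 56.2% under CK-666 in pair 2. With telomeric prey left out of the total, the share was 17.6%, 35.3% and 32.3% under DMSO and 16.2%, 31.96% and 29.1% under CK-666, and the log2 ratios were -0.12, -0.15 and -0.15 (mean -0.14 ± 0.015). Without replicate 2 the mean was -0.13.

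Most of these local junctions were of the deletion type, in which the bait continues on the same strand further downstream. They made up 63.0% ± 6.89 of local junctions under DMSO and 61.8% ± 9.43 under CK-666. Deletions were short, reaching a median of 26, 36.5 and 27 bp past the cut under DMSO and 25, 29 and 28 bp under CK-666. Those that reached over 1 kb were 2.06%, 6.31% and 5.59% of deletions under DMSO and 5.03%, 7.99% and 6.53% under CK-666, with CK-666 above DMSO in 3 of 3 pairs (mean log2 ratio 0.62 ± 0.58, exact sign-flip test p = 0.25). Deletions were diverse: 3156 reads made 1566 different joins, of which 1053 were seen once. A pair of the most frequent deletions and the joins described next are shown to compare their ends, with 15 bases of bait in lower case and the 15 bases that follow in capitals.
Deletion of 15 bases, 12 reads: acacaccctgtcccaCACAAAATCCGGCCA
Deletion of 16 bases, 11 reads: gcagcaggaacacacGCAGGCGCACACAAA
Inverted join 132 bp downstream, 57 reads: cccagctgtggctccGCCTCGGGGTCCACT
Inverted join 181 bp downstream, 39 reads: attaggagaactgttCCTCAGCGTAGGGCG

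The first of these deletions was found in all 6 libraries, with 3, 2 and 2 reads under DMSO and 2, 2 and 1 under CK-666, and its ends shared the 2 bases ca. Joins to the inverted strand downstream formed the second type. They made up 25.5%, 11.5% and 33.5% of local junctions under DMSO and 26.3%, 9.66% and 35.7% under CK-666, so that the order of the replicates was the same in both arms. In most of them the bait had been read beyond the Cas9 cut before it met the prey. The bait end lay over 3 bp past the cut in 73.8%, 59.4% and 82.1% of them under DMSO and in 77.0%, 50.8% and 77.0% under CK-666, against 0.967% to 3.83% of the deletions. Such reads run on through the target. Without them the share within 10 kb was 14.5%, 20.4% and 26.8% under DMSO and 13.2%, 13.4% and 24.5% under CK-666, and the mean log2 ratio over all junctions stayed at -0.29. The inverted join at 132 bp had 7, 6 and 10 reads under DMSO and 14, 5 and 15 under CK-666. Its bait ended 89 bp past the cut, and that of the join at 181 bp ended 73 bp past it. The distances of 132 and 181 bp are from the cut to the prey, and neither bait ended at the cut.

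Unique-sequence prey on chromosome 2 gives the intrachromosomal share. The study reports a lower intrachromosomal translocation frequency with CK-666 for this bait, and its methods scale frequencies to bait-only reads. A share among prey is another measure and cannot show a change that is common to all prey. The intrachromosomal share was 17.7%, 18.7% and 15.9% under DMSO and 16.7%, 16.5% and 15.1% under CK-666. Chromosome 2 holds 6.68% of the genome, so both arms exceeded that share. The arms overlapped, since DMSO replicate 3 lay below CK-666 replicates 1 and 2. The mean was 17.4% ± 1.41 (SD, n = 3) and 16.1% ± 0.85, and the log2 ratios were -0.08, -0.18 and -0.07 (mean -0.11 ± 0.06). Within each pair the 95% intervals overlapped, for example 16.6% to 20.98% against 14.4% to 18.8% in pair 2. Without prey at AsiSI motifs the shares were 17.4%, 18.4% and 14.9% under DMSO and 15.2%, 15.7% and 14.0% under CK-666, with a mean log2 ratio of -0.17 ± 0.07. With 1 Mb left out around the bait and prey at motifs kept, the mean was -0.057 (exact sign-flip test p = 0.5). In that setting not all 3 pairs were lower with CK-666.

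Close to the bait, between 10 kb and 5 Mb, lay 4.63%, 5.10% and 2.66% of unique prey under DMSO and 3.36%, 3.28% and 2.45% under CK-666. Both arms were lowest in replicate 3. The mean log2 ratio was -0.41 ± 0.26, with ratios of -0.46, -0.64 and -0.12. With 1 Mb left out around the bait the mean was -0.25 (exact sign-flip test p = 0.5), and the pairs no longer had a common direction. These shares rest on 86, 63 and 57 junctions under DMSO and 131, 36 and 57 under CK-666. By distance, with prey at motifs left out, the share between 100 kb and 1 Mb was lower in 3 of 3 pairs (1.73% ± 0.798 under DMSO and 1.26% ± 0.375 under CK-666). So was the share over 100 Mb away, at 4.98%, 3.78% and 4.38% under DMSO and 4.24%, 3.09% and 3.63% under CK-666. Its log2 ratios were -0.23, -0.29 and -0.27. The other 6 distance classes had no common direction. For all 8 distance classes the exact sign-flip p was 0.25 or more. Within 10 Mb of the break, prey lay upstream in 50.6% to 63.2% of cases under DMSO and in 61.5% to 68.5% under CK-666.

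**Figure D4:**
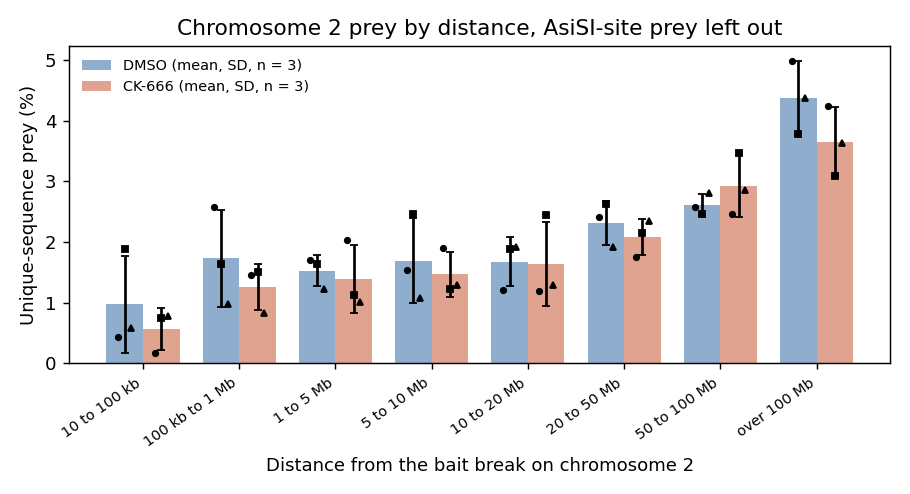
Unique-sequence prey on chromosome 2 as a share of all unique-sequence prey (vertical axis, %), by distance from the break (horizontal axis), with prey within 500 bp of AsiSI motifs left out. Bars and error bars are means and SD of 3 libraries, and circles, squares and triangles are replicates 1, 2 and 3. DMSO bars are the higher in 7 of 8 classes, and the replicates of the arms overlap in every class.

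The response of the intrachromosomal share was set against that of the AsiSI bait at the same locus. In 6 pairs of AsiSI-MEF libraries, with AsiSI prey restricted to positions over 10 kb from any motif, log2 ratios ran from -0.88 to 0.36, with 3 of 6 below 0 (mean -0.06 ± 0.50). The lowest, pair 2, rests on 2 chromosome 2 junctions under CK-666. The Cas9 ratios in this comparison kept prey near motifs. The 2 baits differed by -0.06 on the log2 scale (exact permutation test of 3 against 6 ratios, two-sided p = 0.857, where 0.0119 is the smallest possible). With prey within 10 kb of motifs left out of the Cas9 libraries too, they differed by -0.11 (exact permutation test, p = 0.786). With all AsiSI prey beyond 10 kb of the bait included, the difference was -0.10 (exact permutation test, p = 0.0476). That setting takes in AsiSI prey at the enzyme's own sites, so the 2 baits were compared over unlike prey. It was the only setting of this comparison with p under 0.05.

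Across chromosomes, limma on log2 junction shares with the replicate number as a block called 0 of 21 chromosomes (0%) at an adjusted p under 0.05. Chromosome 2 had the smallest p (log2 ratio -0.11 ± 0.05, SE, unadjusted p = 0.0425, adjusted p = 0.892, limma) and was the only chromosome with an unadjusted p under 0.05. The counting of its junctions alone gives an SE of 0.068, above that of the fit. Without prey at motifs its ratio was -0.17 ± 0.06 (SE, adjusted p = 0.164, limma). Chromosomes 17 and 16 followed, at log2 ratios of 0.20 ± 0.18 and 0.18 ± 0.18 (SE, adjusted p = 0.904 for both, limma).

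Among 252 windows of 1 Mb with at least 10 junctions, limma called 0 (0%), and 8 had an unadjusted p under 0.05. The 3 fullest windows were those around and just upstream of the bait. The window chr2:13000001-14000000, which holds the break, had 28, 35 and 17 junctions under DMSO and 26, 19 and 27 under CK-666. The window chr2:11000001-12000000 had 17, 10 and 9 under DMSO and 27, 2 and 8 under CK-666 (log2 ratio of shares -0.87 ± 0.39, SE, adjusted p = 0.939, limma). Neither was called with all 3 pairs, but both were called lower without replicate 3, with log2 ratios of -0.94 and -1.16 (adjusted p = 1.97e-09 and 0.0264, limma). Those fits rest on 2 pairs, and their SEs of 0.13 and 0.31 lie below the 0.28 and 0.60 that counting alone gives, so these p-values understate the error. The 3 windows with the smallest p were chr2:153000001-154000000, chr9:63000001-64000000 and chr11:53000001-54000000, at log2 ratios of 1.69 ± 0.63, 2.195 ± 0.89 and 1.98 ± 0.81 (SE, adjusted p = 0.939 for each, limma). Of their 28, 17 and 18 junctions, 13, 14 and 12 lay away from AsiSI motifs. The first had 2, 0 and 3 junctions under DMSO and 15, 3 and 5 under CK-666.

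Only 32 genes held at least 10 unique-sequence junctions in their bodies, and limma called 0 of them (0%), with 1 at an unadjusted p under 0.05. The median log2 ratio over the 32 was 0.24. It was -0.02 without replicate 1, and -0.21 over the 20 genes that could be tested without prey at motifs. The genes with most junctions lay beside the bait. Rsu1, the bait gene, had 7, 16 and 7 junctions more than 10 kb from the cut under DMSO and 6, 9 and 11 under CK-666 (log2 ratio -0.47 ± 0.66, SE, adjusted p = 0.874, limma). Cubn, which encodes cubilin, an endocytic receptor for the vitamin B12 and intrinsic factor complex, is its neighbour at chr2:13276338-13491813. It had 6, 10 and 6 junctions under DMSO and 8, 8 and 9 under CK-666 (log2 ratio -0.13 ± 0.63). Gm13270, a noncoding transcript that starts beside the break and overlaps Cubn, had 3, 8 and 6 under DMSO and 3, 4 and 9 under CK-666. The groups overlapped for all of these, and a junction in overlapping genes was counted for each.

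Farther away, Gm20388, a predicted gene whose annotation spans 4435 kb of chromosome 8 and other genes within it, had 10, 1 and 6 junctions under DMSO and 13, 3 and 4 under CK-666. Frmd4a, which encodes a scaffold protein of epithelial polarity, had 2, 3 and 2 under DMSO and 7, 1 and 4 under CK-666. Fgfr2, a fibroblast growth factor receptor, had 19 junctions over the 6 libraries, and 16 of them lay away from motifs. The remaining 4 of the leading 10 were Arhgap11a, Romo1, Gm13610 and Pip4k2a, the last encoding a phosphoinositide kinase. Of their junctions, 0, 0, 0 and 1 lay away from AsiSI motifs. Gm13610, a noncoding antisense gene, had the smallest p of the 32, with 0, 1 and 3 junctions under DMSO and 9, 2 and 6 under CK-666 (log2 ratio 1.62 ± 0.68, SE, adjusted p = 0.638, limma). Next were Dnmt3b, a DNA methyltransferase gene, and its antisense gene Dnmt3bos, which share the same 15 junctions at a motif. In 12 of the 32 genes over 50% of the junctions were at motifs.

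Very long genes can break during replication, and genes at common fragile sites are among the longest, so a list of 30 long or fragile-site genes was examined. It covers 1.46% of the genome and held 154 junctions, 1.23% of unique prey. Its share was 1.02%, 2.02% and 1.49% under DMSO and 0.973%, 1.09% and 1.20% under CK-666, with log2 ratios of -0.07, -0.89 and -0.31 (mean -0.42, or -0.19 without replicate 2). Of its genes, 4 had enough junctions to be tested and 0 were called. The median log2 ratio of the 4 was -0.46. Dmd, Lrp1b, Naaladl2 and Ptprd had 10 junctions each. Lrp1b, a lipoprotein receptor gene on chromosome 2, had 3, 3 and 1 under DMSO and 3, 0 and 0 under CK-666. Dmd, the dystrophin gene, had 0, 0 and 3 under DMSO and 5, 2 and 0 under CK-666. A list of 30 genes expressed in fibroblasts held 30 junctions in 13 genes and covers 0.04% of the genome. Its share was 0.108%, 0.567% and 0.280% under DMSO and 0.256%, 0.0910% and 0.172% under CK-666, with no common direction, and 0 of its genes could be tested. Thbs1, the gene of the matrix protein thrombospondin 1, held 6 of these junctions, and Cald1, the gene of the actin-binding protein caldesmon, held 4.

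Promoters were defined as the 3 kb to each side of a transcription start and cover 11.6% of the genome. They held 17.3%, 16.03% and 19.3% of unique prey under DMSO and 20.6%, 20.1% and 21.1% under CK-666. All 3 CK-666 libraries lay above all 3 DMSO libraries (mean log2 ratio 0.23 ± 0.10, exact sign-flip test p = 0.25). Most prey at AsiSI motifs lay in promoters, between 93.8% and 100% per library. Without it the promoter share was 15.98%, 14.9% and 15.2% under DMSO and 13.8%, 17.7% and 15.9% under CK-666, and the mean log2 ratio was 0.03 ± 0.23. Gene bodies outside promoters then held 43.9% ± 1.79 (SD, n = 3) under DMSO and 43.4% ± 1.54 under CK-666, and sequence between genes 40.7% ± 1.60 and 40.8% ± 1.21.

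The structure of the join was read from the bases shared by, or inserted between, bait and prey. An overlap is a run of read bases that fits both. Short overlaps of 1 to 5 nt were the most frequent class in unique prey, at 41.4% ± 2.64 (SD, n = 3) under DMSO and 41.2% ± 1.90 under CK-666. Blunt joins made up 33.6% ± 5.83 and 32.8% ± 3.31, and joins with inserted bases 12.5% ± 2.60 and 12.7% ± 1.49. The mean log2 ratios of these 3 classes lay between -0.02 and 0.03. Overlaps of 6 nt or more were 7.69%, 9.23% and 20.6% under DMSO and 11.4%, 9.74% and 18.8% under CK-666. Replicate 3 was the highest in both arms.

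The most frequent long overlap was the 8-base AsiSI motif itself, which the bait shares with prey at motifs. It was the overlap of 10, 5 and 30 junctions under DMSO and 92, 9 and 44 under CK-666 that ended 1 base past the cut. The most frequent one without the motif was a low-complexity run that ends 16 bases before the cut, and the 2 are shown to compare them. The low-complexity run occurred at 55 positions on 16 chromosomes, with 2, 3 and 27 junctions under DMSO and 5, 2 and 17 under CK-666.
Motif overlap: gcgatcgc
Low-complexity overlap: acacac

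Without prey at motifs the long-overlap share was 6.62%, 8.29% and 18.1% under DMSO and 7.03%, 7.78% and 15.8% under CK-666. Bait ends more than 3 bp past the cut were also most frequent in replicate 3, in 16.3% of prey on other chromosomes under DMSO and 15.5% under CK-666, against 6.10% to 6.74% in the other 4 libraries. Without such reads, but with prey at motifs kept, the long-overlap share over unique prey was 3.41%, 5.07% and 12.2% under DMSO. Under CK-666 it was 7.41%, 5.58% and 9.51%. The values of pair 1 include prey at motifs, which had long overlaps in 68.75% of 32 junctions under DMSO and 61.1% of 319 under CK-666. Prey on chromosome 2 away from motifs had short overlaps in 49.0% ± 2.13 of junctions under DMSO and 49.8% ± 0.714 under CK-666, and prey on other chromosomes in 40.6% ± 2.99 and 41.2% ± 1.82. Each of the 6 libraries had the higher value on chromosome 2. The bait ended within 3 bp of the cut in 74.6%, 67.4% and 59.7% of unique prey under DMSO and in 72.3%, 62.1% and 62.5% under CK-666.

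Telomeres end chromosomes in tandem repeats of TTAGGG, and a repaired end can gain them by joining a telomere or by addition of new repeats. Telomeric prey made up 3.66%, 50.02% and 3.64% of the junctions beyond 10 kb under DMSO and 4.61%, 65.3% and 2.11% under CK-666. The value of replicate 2 is the highest in both arms by far (95% interval 48.3% to 51.7% under DMSO and 63.9% to 66.8% under CK-666). CK-666 was higher in pairs 1 and 2 and lower in pair 3 (log2 ratios 0.33, 0.39 and -0.79). Among the 26 AsiSI-bait libraries the share ran from 0% to 42.9% with a median of 0.357%, so a library rich in telomeric prey also occurred there. The AsiSI library at 42.9% was the NU7441 replicate 2.

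Many of these junctions fell into the same joins. A join was defined by the bait end and the first 12 bases after it. In a tandem repeat these bases take few forms, so separate events with the same bait end can count as the same join. Numbers of telomeric joins can therefore understate separate events. The 1605 telomeric junctions of DMSO replicate 2 came from 285 joins and the 2699 of CK-666 replicate 2 from 441, which is 5.63 and 6.12 junctions per join. The other 4 libraries had 38 and 30 joins under DMSO and 45 and 28 under CK-666. Unique prey of the same 2 libraries had 1.03 junctions per join, but there 12 bases separate joins better, so the values are not like measures. The 5 leading joins held 58.2% of the telomeric junctions of DMSO replicate 2 and 52.1% of those of CK-666 replicate 2. Counting each join once, telomeric joins were 1.45%, 15.1% and 1.28% of prey beyond 10 kb under DMSO and 0.965%, 23.5% and 1.10% under CK-666. The 4 leading joins are shown because they are the most frequent of this class. The last 10 bases of bait are in lower case, and the 20 bases that follow, with any inserted bases, are in capitals.
Telomeric join ranked 1: accctgtcccTAACCCTAACCCTAACCCTA
Telomeric join ranked 2: cagcgatcgcAGGCAGCCTAACCCTAACCC
Telomeric join ranked 3: aacacaccctAACCCTAACCCTAACCCTAA
Telomeric join ranked 4: ccagcgatcgACCCTAACCCTAACCCTAAC

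The first had 532 junctions in CK-666 replicate 2, 42 in DMSO replicate 2 and at most 9 in any other library. Its bait end lies 8 bases before the cut, and 3 bases fit both sides. The second was found 435 times in DMSO replicate 2, once in DMSO replicate 3 and in no CK-666 library, and it holds a median of 6 bases between the bait and the mapped prey. The third had 347 junctions in CK-666 replicate 2 and 27 in DMSO replicate 2. The fourth was found in every library, with 4, 169 and 14 junctions under DMSO and 68, 73 and 8 under CK-666. Its bait ends exactly at the cut. The 26 AsiSI-bait libraries held 112, 4, 78 and 46 junctions with these 4 joins, in order of rank. The 2 replicates rich in telomeric prey shared 46 joins, 16.1% of those of DMSO replicate 2 and 10.4% of those of CK-666 replicate 2. The first join mapped to 478 positions on 21 chromosomes, so a telomeric prey position names no chromosome end.

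**Figure D5:**
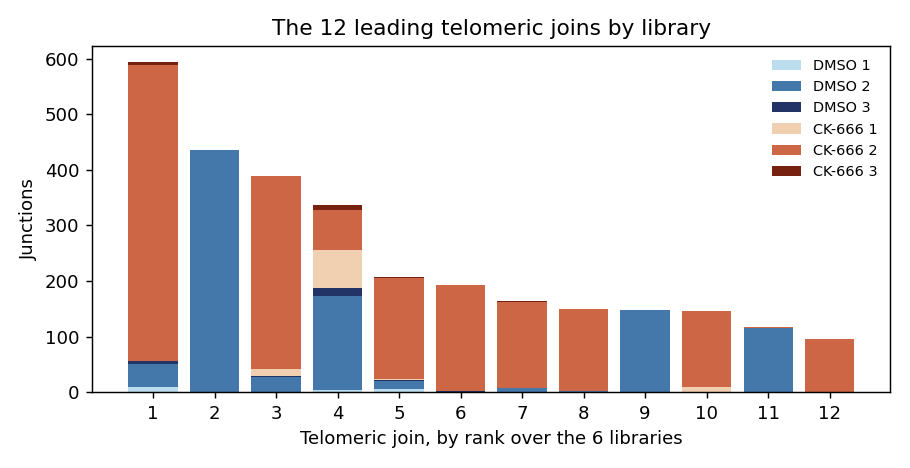
Number of junctions (vertical axis) of the 12 most frequent telomeric joins (horizontal axis, ranked over all 6 libraries), with colours for the libraries. Most joins come mainly from replicate 2 of 1 arm, and the fourth is spread over all 6 libraries.

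The strand of the repeat also followed the replicate. The bait read into the CCCTAA strand, which runs inward from a chromosome end, in 65.3%, 96.7% and 83.9% of telomeric junctions under DMSO and in 82.5%, 97.9% and 79.6% under CK-666. The TTAGGG orientation made up the rest. With each join counted once, CCCTAA joins were 65.8%, 87.4% and 76.7% under DMSO and 66.7%, 91.4% and 75.0% under CK-666. Telomeric junctions carried inserted bases in 60.7% ± 14.2 (SD, n = 3) under DMSO and 50.02% ± 4.62 under CK-666. This was 32.6% ± 1.35 and 35.7% ± 6.13 in repeat windows, and 25.0% ± 1.44 and 25.3% ± 3.01 within 10 kb of the break. In prey on other chromosomes it was 12.5% ± 2.24 and 13.1% ± 0.70. The lowest telomeric library lay above the highest library of each of these classes. These shares count junctions and not joins, and 1 join made up 435 of the 1605 telomeric junctions of DMSO replicate 2.

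Repeat windows held 21.7%, 9.78% and 6.19% of junctions beyond 10 kb under DMSO and 12.5%, 6.66% and 6.51% under CK-666. CK-666 was lower in pairs 1 and 2 and higher in pair 3 (mean log2 ratio -0.43 ± 0.45, exact sign-flip test p = 0.5). Without telomeric prey in the total, the share was 22.5%, 19.6% and 6.42% under DMSO and 13.1%, 19.2% and 6.65% under CK-666. The log2 ratios were then -0.78, -0.03 and 0.05, so that only pair 1 was far from 0 (mean -0.25 ± 0.46). Over all junctions beyond 10 kb, the mean was -0.24 without replicate 1 and -0.68 without replicate 3. The fullest was chr2:98660001-98670000, with 226, 128 and 76 junctions under DMSO and 249, 120 and 83 under CK-666. Next was chr14:19410001-19420000, with 199, 101 and 40 under DMSO and 188, 77 and 45 under CK-666. With telomeric prey left out of the total, the log2 ratios of share were -0.70, 0.070 and 0.0036 for the chromosome 2 window and -0.92, -0.23 and 0.046 for that of chromosome 14. The 4 neighbouring windows at the start of the chromosome 9 sequence, chr9:3000001-3040000, held 55 to 76 junctions each. Between 59.4% and 73.2% of their 24-base words occur more than once in the window. The most frequent word of the first of these windows, found 31 times, and that of the chromosome 14 window, found 9 times, are shown as examples of the repeated sequence. In the chromosome 2 window 9.74% of the words were repeated, and in the chromosome 14 window 12.7%. The windows chr12:3100001-3110000, chr12:3110001-3120000 and chr9:35300001-35310000 held 62, 47 and 180 junctions, and 0.020%, 0.37% and 0.81% of their words were repeated. Windows were chosen by their number of junctions and not by sequence, so not every window of this class is made of repeated words.
Chromosome 9 window word: gtttctcattttccatgattttca
Chromosome 14 window word: atccacttgacgacttgaaaaatg

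Cas9 can cut sites that resemble its target. Besides the target, the 21 chromosomes held 25 sites with an NGG motif and up to 4 mismatches to the guide, 1 with 3 mismatches and 24 with 4. Of the 12565 unique prey, 1 lay within 1 kb of any of them, at a site on chromosome 3 and in CK-666 replicate 1. No such site reached the 3 junctions set for naming.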

How the data were processed

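The 6 Cas9-bait tables and, for comparison, 26 AsiSI-bait tables were analysed. Per the file headers and the study's methods, the authors sonicated DNA, amplified it with biotinylated and nested primers, sequenced it on a MiSeq, aligned it to mm10 with BWA, filtered with the HTGTS pipeline (mapping quality over 30) and deposited 1 line per junction, as positions and strands, with no counts and no normalization. Tool versions are not given in the sources used here. Genes were from GENCODE vM21. Repeat windows of 10 kb lay over 5 Mb from the bait and held at least 20 non-telomeric junctions over 10 kb from AsiSI motifs, summed over the 6 libraries. Libraries were paired by replicate number. Shares were compared by exact sign-flip tests, adjusted by Benjamini-Hochberg. Windows, chromosomes and genes were compared by limma 3.58.1 (R 4.3.3, trend) on log2 of the junctions per 1000 of the library (0.5 added to each number and 1 to the total). The fit for windows and genes was tested on simulated counts. These held no differences between replicates besides depth, so that test does not cover such differences. Python 3.11.15 was used otherwise. Named were the 10 genes with most junctions, 3 or, with ties, 4 leading genes of each list, and the 3 smallest p-values, except 1 list gene that is not reported here. The members, lists and tests were chosen with earlier results of these data known. Bait-only reads and 12 Hi-C samples were not used here. Settings that leave out prey at AsiSI motifs, bait ends past the cut or telomeric prey from a total were chosen after seeing the data.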

Additional observations from a re-analysis of the deposited data

Results flagged for a closer look

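Prey on contigs outside the assembled chromosomes entered no comparison and came to 396 junctions over the 6 Cas9 libraries. It made up 5.23%, 1.71% and 0.669% of junctions beyond 10 kb under DMSO and 2.25%, 1.43% and 0.663% under CK-666 (mean log2 ratio -0.50 ± 0.63, exact sign-flip test p = 0.25). Pair 1 differed most, at -1.22, and pair 3 had 16 and 17 such junctions. With telomeric prey left out of the total, the log2 ratios were -1.20, 0.26 and -0.04, with no common direction (mean -0.32 ± 0.77).

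Prey within 500 bp of AsiSI motifs, in cells labelled without the AsiSI transgene, came to 659 junctions. No untransfected control of these cells was analysed here, and the origin of these junctions was not tested.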

How the results depend on the processing

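The 15 results were recomputed in 156 alternative settings, of which 131 kept their direction and call. The replicate number is not known to mark a shared culture. Same-numbered libraries correlated at -0.04, -0.03 and 0.14 in their 1-Mb window shares, centred within arms, so the numbers were not shown to pair the libraries. With as few as 10 junctions per window over the 6 libraries, this measure could not decide the question. Some shares followed the number, such as the telomeric share, which was highest in replicate 2 of both arms. Without the replicate block the telomeric ratio was 0.33 (all 3 means are log2 ratios), the intrachromosomal ratio -0.12 and the promoter ratio 0.23 (exact permutation p = 0.1, the smallest that 3 against 3 can give), and 0 windows, chromosomes or genes were called. Leaving out 1 replicate gave a telomeric ratio of -0.23 to 0.36, long overlap -0.025 to 0.33, short overlap -0.049 to 0.053, blunt -0.10 to 0.020, insertion -0.092 to 0.13 and uncut bait end -0.081 to 0.011, and 0 to 2 called windows, the 2 without replicate 3. The bait difference ran from -0.22 to 0.025. Without prey within 500 bp of an AsiSI motif the ratios were 0.011 for telomeric, -0.066 for long overlap, 0.018 for short overlap and 0.0062 for blunt joins. Within 10 kb they were 0.014, -0.063 and 0.021 for the first 3. With telomeric and repeat-window prey kept, the promoter ratio was -0.083, short overlap 0.20, insertion -0.12 and the bait difference 0.10. With bait ends within 10 bp of the cut called uncut, that ratio was 0.011, and with all AsiSI prey the bait difference was -0.10. The cause was not tested for any of these. Depth limits windows and genes, since few held 10 junctions.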
